A study of Homo sapiens with 6 samples.

Results

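The comparison concerned open chromatin in K562 cells that overexpressed the E669Q form of SLFN11, after camptothecin (CPT) and after its solvent DMSO. An open region was an interval of the authors' peak list of a library, and lists were compared by position on the hg19 human genome build. A CPT interval that no DMSO interval overlapped by at least 1 bp was called gained, the reverse was called lost, and all others were called shared. The 2 libraries of the line covered 13829 merged regions, of 17466 found in the 6 libraries of the whole series.

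K562 is an established human leukaemia line. The E669Q SLFN11 cells received 1000 nM CPT for 4 h or DMSO, and the same was done with cells overexpressing wild-type SLFN11 and with cells carrying the vector. Each of the 6 groups was 1 library, so no difference has a replicate check and no p-value was computed. The labels do not state the promoter of the transgene or whether a line was 1 clone, and the level of SLFN11 and the marker genes of K562 cells were not analysed here.

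CPT holds topoisomerase I on DNA, and replication forks that run into the trapped enzyme stall or break. SLFN11 is a member of the Schlafen family that is recruited to stressed forks, where it blocks replication and sensitises cells to DNA-damaging drugs. The E669Q substitution lies in the ATPase domain of the protein, and the series asked how SLFN11 changes chromatin under replication stress. In ATAC-seq a transposase inserts adapters preferentially into nucleosome-free DNA, so that promoters and enhancers in use appear as peaks of sequenced fragments.

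The CPT list held 12337 intervals covering 3.86 Mb and the DMSO list 8365 covering 2.59 Mb. Read numbers are not given in the sources used here, but the depth of each library relative to the shallowest of the series was recovered from the deposited values. It was 2.22 for the CPT library and 1.33 for the DMSO library, a ratio of 1.66, so that the CPT library could detect weaker sites. The other 4 libraries had relative depths of 1.09 (wild-type SLFN11, CPT), 1.72 (wild-type SLFN11, DMSO), 1.09 (vector, CPT) and 1 (vector, DMSO). The number of fragments at a summit, called the pileup here, had a median of 11 in the CPT list and 9 in the DMSO list.

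Sites gained in E669Q cells numbered 5572, which is 45.2% of the CPT list (Clopper-Pearson 95% interval 44.3 to 46.0). Sites lost numbered 1590, which is 19.0% of the DMSO list (18.2 to 19.9). Here and below the intervals cover counting error only. Gained sites were small and narrow, and 1091 of them (19.6%) lay within 10 kb of a site open with DMSO. They made up 45.2% of the CPT intervals but covered 1.25 Mb, against 2.61 Mb for shared CPT intervals, and lost sites covered 0.343 Mb, against 2.24 Mb for the DMSO intervals found again. More than 1 summit was listed in 3.05% of gained and in 25.5% of shared CPT intervals, and in 0.566% of lost and 11.3% of found-again DMSO intervals. A gained interval was a median of 55080 bp from the nearest DMSO interval, and 382 of them (6.86%) lay within 250 bp of one. Lost intervals were nearer to the opposite list, at a median of 28097 bp, but that list was the longer one. Within 10 kb of a CPT interval lay 522 lost intervals (32.8%), and within 250 bp 279 (17.5%). At the limit of the rule, 42 CPT intervals overlapped a DMSO interval by 10 bp or less, while 26 gained and 23 lost intervals lay within 10 bp of the other list. The 6873 shared pairs overlapped by a median of 222 bp, and their summits lay a median of 65 bp apart, with 41.2% within 50 bp. With an overlap of 50% of both intervals required, 3762 DMSO intervals in place of 1590 had no counterpart.

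Within its own list a site that was not shared was weak. The authors' fold enrichment over local background had a median of 5.47 (quartiles 4.71 and 6.32) in gained intervals and 6.71 (5.65 and 7.96) in shared CPT intervals. Median width was 192 bp in gained and 355 bp in shared intervals, and the median pileup was 9 (quartiles 8 and 11) and 14 (11 and 19) fragments. The DMSO list showed the same order. In lost intervals the fold had a median of 5.22 and the pileup one of 7, while in those found again the medians were 6.30 and 10. These are values within 1 list and set no level across the libraries.

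The share of unshared intervals fell steadily with strength. When the CPT list was divided by −log10 p into 10 classes of equal size, 76.7% of the weakest class was gained, 51.6% of class 5 and 6.40% of the strongest (79 of 1234, 95% interval 5.10 to 7.92). In the DMSO list 41.8% of the weakest class, 18.8% of class 5 and 0.478% of the strongest (4 of 837, 0.130 to 1.22) was lost. Of the 837 strongest sites of DMSO-treated E669Q cells, 4 were not listed with CPT.

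**Figure D1:**
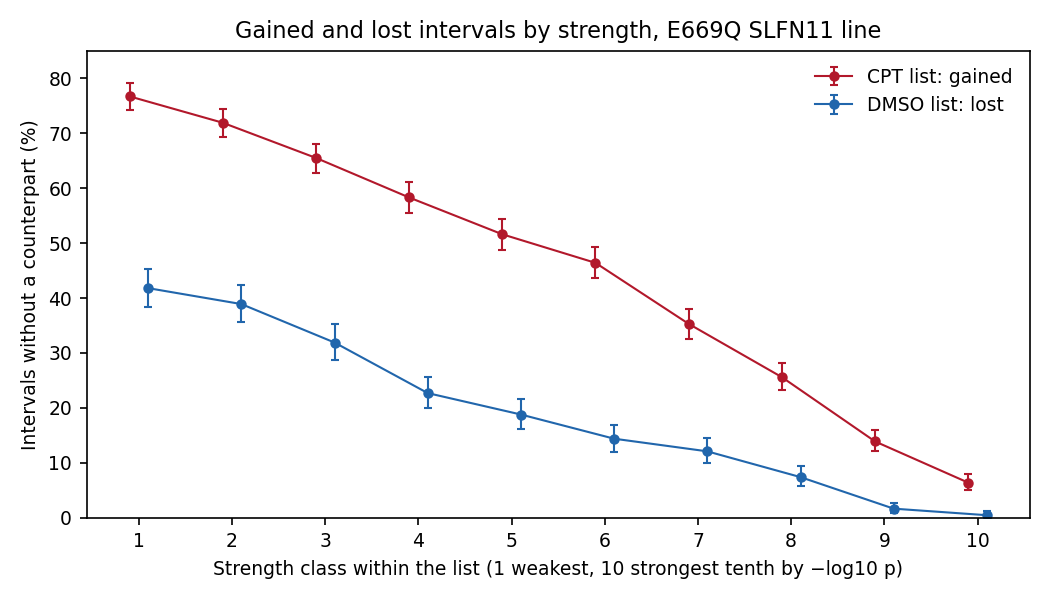
Share of intervals without a counterpart in the other E669Q SLFN11 list, for gained intervals of the CPT list (red) and lost intervals of the DMSO list (blue), in 10 classes of each list from the weakest to the strongest by −log10 p. Bars are 95% binomial intervals; the share falls from 76.7% to 6.40% for gained and from 41.8% to 0.478% for lost intervals.

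Because the CPT list was longer, both lists were cut to the length of the DMSO list by −log10 p. Gained and lost sites were then nearly equal in number: 2796 of the 8365 (33.4%) were gained on the CPT side and 2718 (32.5%) lost on the DMSO side. Of these 2718, 1128 were still present in the full CPT list below the cut. Gained intervals kept a lower median fold than shared ones at matched length (6.32 and 7.07), and so did lost ones (5.40, against 6.45 for those found again). Among the 2000 strongest of each list 929 were gained and 925 lost, among the 1000 strongest 466 and 463, and among the 500 strongest 207 and 205. Among the strongest most of this turnover was a change of rank. Of the 1000 strongest CPT intervals, 63 (6.30%, 4.87 to 7.99) had no interval anywhere in the full DMSO list, and of the 1000 strongest DMSO intervals, 5 (0.5%, 0.163 to 1.16) had none in the full CPT list. In the wild-type SLFN11 line the same counts were 6 and 110, where the DMSO library was the deeper, and 119 and 97 in the vector line.

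Depth was also equalised directly, by scaling the recovered pileups and backgrounds of the CPT library to the DMSO depth. Of the CPT intervals 8052 then still passed the lowest −log10 p of the DMSO list, and 2525 of those (31.4%) were gained. Of the 6765 shared CPT intervals 5527 passed. With the CPT library at DMSO depth 2755 DMSO intervals were lost, so that lost sites outnumbered gained ones, the reverse of the deposited lists. Only the CPT list was cut, however, to 8052 intervals against 8365 with DMSO. Rounding down and the fixed threshold also removed CPT intervals that overlapped a DMSO interval. Which count was larger therefore gives no direction of change.

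Most of the strongest wide gained intervals stood on a dense background. The rule took the 10 gained intervals wider than 150 bp with the highest −log10 p, and 8 of them stood on a local background of 5 fragments or more. On chromosome 2 the interval from 89875094 to 89875399 had 98 fragments on a background of 7.95, a fold of 11.1, and the nearest DMSO interval was 883888 bp away. On chromosome 19 the one from 27736315 to 27736511 had 221 fragments on 93.4, a fold of only 2.35. Among all gained intervals a background of 5 or more was rare (85 of 5572), and it was found in 1 of 1590 lost intervals. In the strongest of the 10 classes of the CPT list, 24 of 79 gained intervals were on such a background or without a recovered pileup, against 163 of 1155 shared ones. With those at most 150 bp wide added, these counts were 40 (50.6%) and 171 (14.8%). Of all gained intervals the highest −log10 p, 1023, belonged to one of 112 bp on chromosome 6, from 62284043 to 62284154. It had a fold of 50.5 and no recovered pileup, and was in the list of DMSO-treated wild-type SLFN11 cells.

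Strong gained intervals were found in other lines less often than shared ones of the same class: 56 of the 79 (70.9%) were in the list of another line, against 98.1% of the 1155 shared. Among gained intervals wider than 150 bp with a background under 2, a limit set after the values were seen, the highest −log10 p was on chromosome 5 from 154033399 to 154033751. It had 31 fragments (18.8 at DMSO depth) on a background of 1.79, a fold of 11.5, and appeared in all 4 lists of the other lines. A pair lay close together on chromosome 11. The first, from 59436407 to 59436781, had 3 summits, 26 fragments and a fold of 10.4, and the second, from 59474431 to 59474672, had 22 fragments and a fold of 12.1. An interval on chromosome X from 14082971 to 14083373 had 20 fragments and a fold of 12.6. Of the 10 strongest gained intervals of this kind, 9 were in the list of another line and 8 in that of DMSO-treated wild-type SLFN11 cells. The exception was chromosome 6 from 167617508 to 167617693, with 22 fragments and a fold of 11.3. It was found in CPT-treated E669Q cells only.

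Few lost sites were strong, and none of the 10 strongest wider than 150 bp stood on a dense background. They had 10 to 19 fragments on backgrounds of 0.295 to 0.876 and folds of 8.30 to 10.9. The strongest lay on chromosome 1 from 57684344 to 57684763, with 19 fragments, a fold of 10.9 and the nearest CPT interval 701859 bp away. The next were on chromosome 5 from 115420622 to 115420984 (16 fragments, fold 10.2) and on chromosome 7 from 2353849 to 2354377 (16 fragments, fold 9.06). The only other lost site in the strongest of the 10 classes was a 121 bp interval on chromosome 11 from 73221736 to 73221856, with 51 fragments and a fold of 26.3. All 4 were in the list of DMSO-treated wild-type SLFN11 cells, and 9 of the 10 strongest wide lost intervals were in some other list.

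Few sites changed the same way in all 3 lines, and in the wild-type SLFN11 line the deeper library was DMSO. Taken singly, the wild-type SLFN11 and vector lines gained 3.91% and 12.2% of the sites gained here. They lost 33.0% and 7.80% of those lost here. How many sites unrelated lists would have in common was not computed. In all 3 lines 34 intervals (0.61% of those gained here) were gained and 58 (3.65% of those lost here) were lost. The wild-type SLFN11 line gained 15.1% of its CPT list and lost 59.5% of its DMSO list, and the vector line gained 45.1% and lost 39.5%. The strongest site gained in all 3 lay on chromosome 1 from 150669663 to 150669911 (19 fragments, fold 10.1). The next were on chromosome 1 from 42501567 to 42501797 (18 fragments, fold 8.80), with a DMSO interval 163 bp away, and on chromosome 6 from 30658553 to 30658870 (17 fragments, fold 7.03). The strongest sites lost in all 3 were the chromosome 1 interval at 57684344 given above and one on chromosome 4 from 4861281 to 4861598 (12 fragments, fold 8.39). Another, on chromosome 13 from 107220243 to 107220482, had 16 fragments and a fold of 7.43, but a CPT interval lay 35 bp away.

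Other lines had shared sites far more often than gained or lost ones. In the list of DMSO-treated wild-type SLFN11 cells, the longest of the other 4, 43.4% of gained intervals (42.1 to 44.7) and 41.7% of lost intervals (39.3 to 44.2) had a counterpart, against 85.6% of shared CPT intervals. In the CPT list of the wild-type SLFN11 line these were 15.9%, 12.1% and 56.7%. In the vector line they were 18.7%, 12.4% and 56.5% with CPT, and 14.6%, 12.5% and 52.0% with DMSO. When the list of DMSO-treated wild-type SLFN11 cells was cut to the 5246 intervals of the shortest list, it held 15.3% of gained, 13.9% of lost and 58.2% of shared intervals. Gained intervals that passed at DMSO depth were found more often: 22.3% in the CPT list and 55.2% in the DMSO list of the wild-type SLFN11 line, and 27.5% and 21.1% in those of the vector line. In no list of another line were 2589 gained intervals (46.5%), 800 lost intervals (50.3%) and 9.22% of shared CPT intervals. In all 4 other lists were 145 gained (2.60%), 16 lost (1.01%) and 2110 shared intervals (31.2%).

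**Figure D2:**
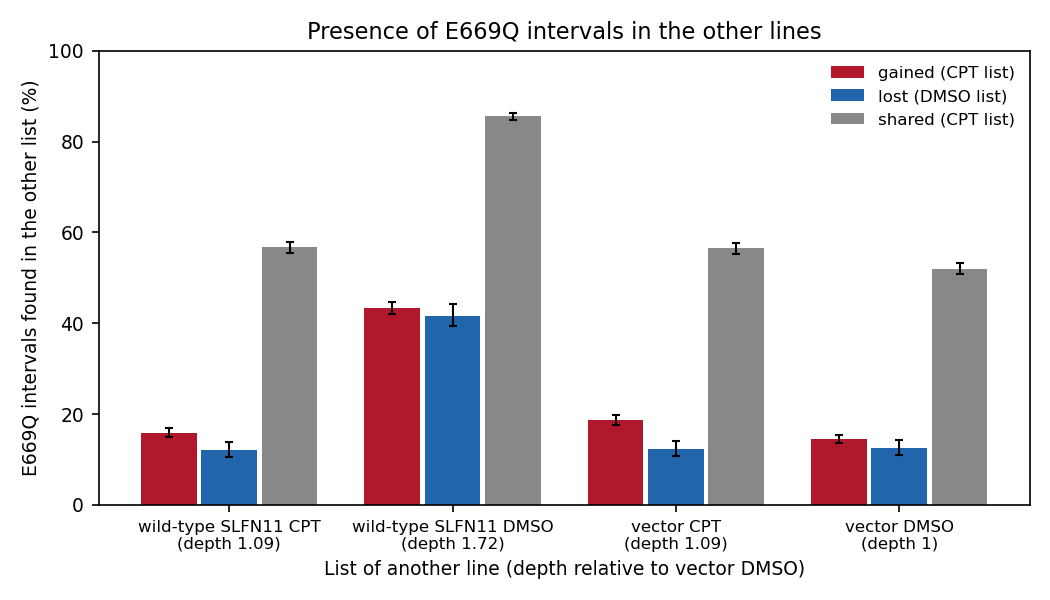
Share of the gained, lost and shared intervals of the E669Q SLFN11 line that overlap an interval of each list of the other lines, with 95% binomial intervals and the relative depth of each list. Gained and lost intervals lie between 12.1% and 43.4% and below shared intervals in every list, and differ most from each other in the vector CPT list (18.7% and 12.4%).

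The direction of change in other lines was also read from the lists. Of the sites gained here, 218 (3.91%) were in the CPT list alone of the wild-type SLFN11 line and 1746 (31.3%) in its DMSO list alone. Sites lost here divided in the same way, with 54 (3.40%) in the CPT list alone and 525 (33.0%) in the DMSO list alone. Shared CPT intervals had like shares, at 2.41% and 31.3%, but the sets differed in the rest. In both lists of the wild-type SLFN11 line were 12% of gained, 8.68% of lost and 54.3% of shared CPT intervals. In neither list were 52.7%, 54.9% and 12%. The like shares of whole sets therefore do not show that gained and shared sites behaved alike in that line. In the vector line, whose libraries were of like depth, 677 gained sites (12.2%) were in the CPT list alone and 446 (8%) in the DMSO list alone, against 123 (7.74%) and 124 (7.80%) of lost sites. Shared CPT intervals of E669Q cells leaned the same way in the vector line, with 17.1% in its CPT list alone and 12.5% in its DMSO list alone.

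Other sites were in no other list. The gained intervals of this kind with the highest −log10 p were narrow: 4 of the 5 were 104 to 126 bp wide. They included chromosome 2 from 156120518 to 156120621 (68 fragments, fold 28.6) and from 159440693 to 159440798 (48 fragments, fold 23.7). The matching lost intervals were weaker, with 10 to 12 fragments and folds of 8.03 to 8.88. Among them were chromosome 5 from 178259689 to 178260001 (fold 8.88) and chromosome 1 from 204641599 to 204642033 (fold 8.03).

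Sites open in both conditions were slightly lower with CPT than with DMSO at equal depth. Over the shared pairs with recovered values, the median pileup was 14 fragments with CPT, which is 8.48 when scaled to the DMSO library, and 10 with DMSO. The median log2 ratio of depth-scaled pileups was −0.24 (quartiles −0.55 and 0.07), and 69.8% of pairs were below 0. The median was −0.31 in the weakest of 5 classes of pairs and −0.14 in the strongest. The wild-type SLFN11 line had a median of 0.10 and the vector line one of −0.07. A pair had to be called in both libraries, which removes pairs with few fragments in the shallower one, DMSO in the E669Q line and CPT in the wild-type SLFN11 line. In both of these lines the shallower library had the higher scaled pileups. Scaling was by the background of the whole genome, and the local background around the same pairs had a median log2 ratio of 0.003. Among the 1705 pairs with at least 20 fragments in either library before scaling, a choice that favours the deeper CPT library, 857 were above 0 and 848 below, with a median of 0. With the limit set on scaled pileups the median was −0.21.

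A few shared sites moved far more than the rest. Of the 1705 pairs 22 were more than 1 log2 unit higher with CPT and 37 more than 1 lower. The highest ratio was on chromosome 2 from 92324327 to 92325892, with 296 fragments with CPT (179 scaled) and 60 with DMSO, a log2 ratio of 1.58. It stood on backgrounds of 31.8 and 16.4. On an ordinary background, chromosome 6 from 7975220 to 7975750 had 34 fragments (20.6 scaled) with CPT and 8 with DMSO, a log2 ratio of 1.37. Chromosome 7 from 137567045 to 137567270 had 26 (15.8 scaled) and 6, a ratio of 1.39. On the low side chromosome 5 from 93905088 to 93905242 had 111 fragments (67.3 scaled) with CPT and 236 with DMSO, a log2 ratio of −1.81. This site too stood on a dense background, of 8.64 with CPT and 7.01 with DMSO. Chromosome 11 from 112096787 to 112097393 had 10 (6.06 scaled) and 21, a ratio of −1.79, and its DMSO interval was in all 4 lists of the other lines. Chromosome 1 from 179050860 to 179051573 had 11 (6.67 scaled) and 21, a ratio of −1.66.

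Gained sites were found on every nuclear chromosome, with the highest shares in the deposited list on chromosomes 17 and 22. Chromosome Y and the mitochondrial genome, with few intervals, are left out of what follows. On chromosome 17, 225 of 405 CPT intervals (55.6%, 50.6 to 60.5) were gained, and on chromosome 22, 92 of 166 (55.4%, 47.5 to 63.1), against 45.2% of the whole list. The lowest shares were 38.3% on chromosome 21 and 39.6% on chromosome 14. If each strength class were gained at its own rate in the whole list, chromosome 17 would have 50.9% gained and chromosome 22 45.9%. Part of the chromosome 17 excess thus went with its mix of strength classes, and most of the chromosome 22 excess did not. At matched length 43.4% of chromosome 17 and 39.6% of chromosome 22 intervals were gained, against 33.4% in all, and chromosomes 20 (41.9%) and 12 (39.8%) stood above 22. The chromosome 22 excess shrank the more when weaker intervals were left out. It was 10.3 percentage points as deposited, 6.20 at matched length and 4.64 at DMSO depth. Among CPT intervals with a −log10 q of at least 5 it was 3.56, against 9.44 on chromosome 17. Chromosome 19, the chromosome with the most protein-coding genes per Mb, had 42.9% gained. Its lost share as deposited was the lowest, 14.2% (11.2 to 17.7), with chromosome 4 at 14.5%. Deposited lost shares were highest on chromosomes 20 (25.4%), 13 (24.8%) and 9 (24.7%). At matched length chromosome 19 was not the lowest: 28.2% of its DMSO intervals were lost, against 24.1% on chromosome 21 and 32.5% in all.

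**Figure D3:**
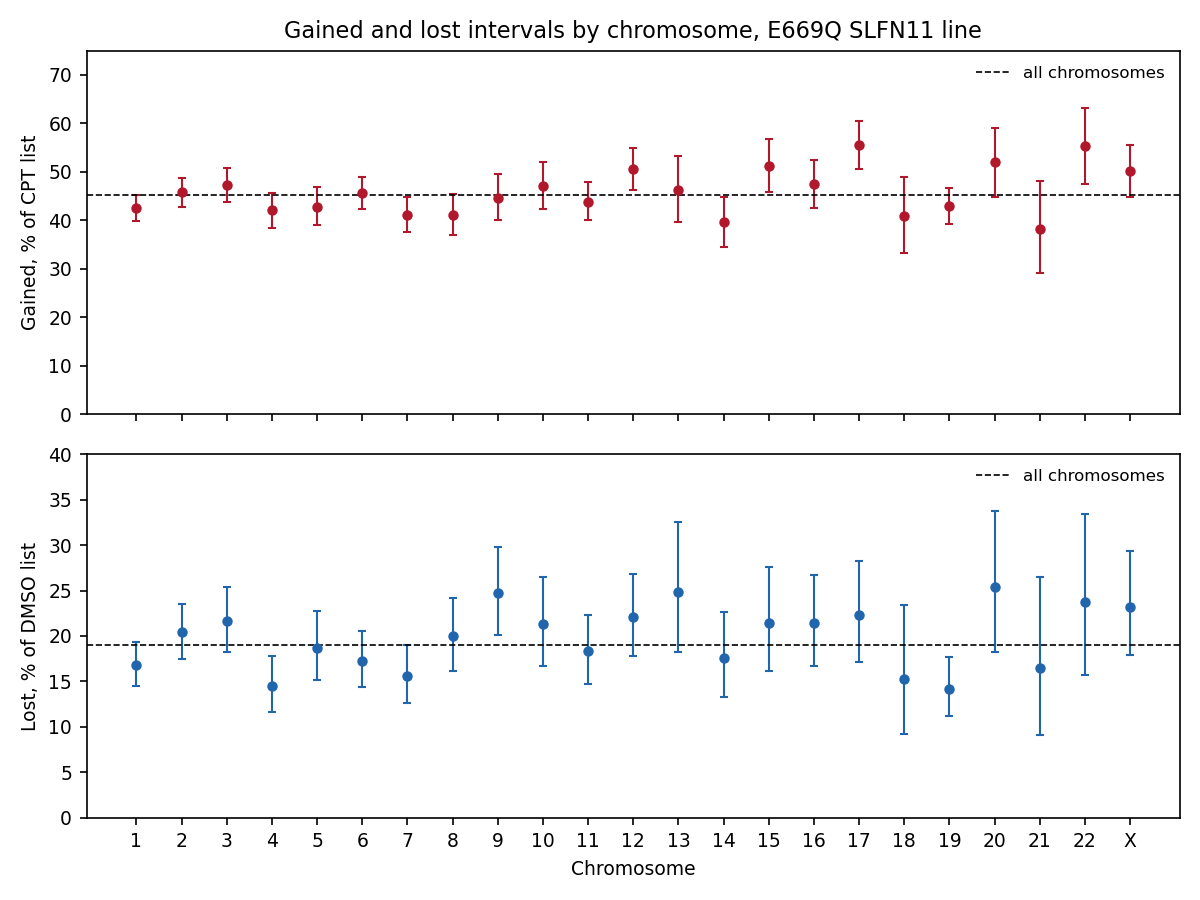
Gained intervals as a share of the CPT list (upper panel) and lost intervals as a share of the DMSO list (lower panel) on each chromosome of the E669Q SLFN11 line, with 95% binomial intervals and a dashed line at the share over all chromosomes (45.2% and 19.0%). In these deposited lists chromosomes 17 and 22 have the highest gained shares and chromosome 19 the lowest lost share, which did not hold for 22 and 19 at matched list length.

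At a finer scale, in segments of 10 Mb, the gained share ranged from 23.6% to 78.6% (median 44.8%) over 257 segments with at least 20 CPT intervals. The lost share ranged from 3.45% to 50% (median 17.1%) over 187 segments. The largest gained shares were on chromosome 22, with 22 of 28 intervals between 40 and 50 Mb (78.6%) and 25 of 32 between 30 and 40 Mb (78.1%). Next came chromosome 15 between 70 and 80 Mb, with 39 of 55 (70.9%). The chromosome 22 segment between 40 and 50 Mb also lost 8 of its 14 DMSO intervals (57.1%), too few for the ranking of lost shares. The one between 30 and 40 Mb lost 1 of 8, and the chromosome 15 segment 7 of 23. The largest numbers of gained intervals were on chromosome 19 between 40 and 50 Mb (72 of 140) and on chromosome 11 between 60 and 70 Mb (64 of 120). Lost intervals were most numerous on chromosome 9 between 130 and 140 Mb (27 of 87) and on chromosome 6 between 20 and 30 Mb (23 of 63). The highest lost shares were 12 of 24 on chromosome 12 between 0 and 10 Mb, and 11 of 22 both on chromosome 2 between 80 and 90 Mb and on chromosome 20 between 0 and 10 Mb. Gained shares in these segments were also high, at 58.6%, 64.5% and 57.7%, against 45.2% of the whole CPT list.

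With both lists at the DMSO length, some segments held fewer or more intervals with CPT. On chromosome 9 between 130 and 140 Mb there were 52 intervals with CPT and 87 with DMSO, and on chromosome 6 between 20 and 30 Mb 41 and 63. At the end of chromosome 2, between 240 and 250 Mb, there were 6 and 23. Higher counts with CPT were found on chromosome 10 between 40 and 50 Mb, with 53 and 39. On chromosome 19 between 50 and 60 Mb there were 56 and 43, and on chromosome 22 between 30 and 40 Mb 20 and 8. In the wild-type SLFN11 line, where the DMSO library was the deeper, the deposited lists held 57 with CPT and 91 with DMSO in this chromosome 19 segment, and 10 and 26 in the chromosome 22 segment. Vector cells, with libraries of like depth, had 26 and 22, and 5 and 2. In the chromosome 9 segment vector cells went the other way from E669Q cells, with 46 with CPT and 32 with DMSO. They had 40 and 41 in the chromosome 6 segment, 6 and 9 in that of chromosome 2, and 29 and 27 in that of chromosome 10. The wild-type SLFN11 line had 49 and 103, 41 and 108, 11 and 20, and 34 and 45 in these segments.

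With 45.2% of CPT intervals gained, gained sites also followed each other along a chromosome with no shared CPT interval between them. Whether these runs were longer than in a random order was not tested. The longest run, on chromosome 22 from 42342846 to 47031478, held 14 gained intervals in 4.69 Mb with folds of 4.17 to 7.12 and 6 to 10 fragments, and 3 of the 14 passed at DMSO depth. The most compact of the 5 longest runs was on chromosome 15 from 75246734 to 75987081, with 11 gained intervals in 0.74 Mb and 7 to 23 fragments, of which 5 passed at DMSO depth and 3 were in a list of another line. On chromosome 9 a run of 13 from 33290569 to 35111732 held 8 sites listed in DMSO-treated wild-type SLFN11 cells. Inside each of these gained runs lay 2 DMSO intervals. Runs of lost sites, with 19.0% of DMSO intervals lost, had fewer members. The longest, 6 intervals on chromosome 2 from 79739800 to 85645811 with 6 to 8 fragments each, was present in full in the list of DMSO-treated wild-type SLFN11 cells. A run of 5 lay on chromosome 12 from 6982522 to 7592799, and 1 of its 5 was in that list. CPT intervals lay inside these lost runs too, 6 in the chromosome 2 run and 2 in the chromosome 12 run.

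The fragment density of the 10 kb around shared sites was higher with CPT on chromosomes 16, 17, 19 and 22. Over these together, chosen after their values were seen, the median log2 ratio of depth-scaled background was 0.17 (880 pairs, 71.9% above 0), against −0.02 on the other chromosomes (5954 pairs, 47.0% above 0). By chromosome it was highest on 22 (0.19), 17 (0.18), 19 (0.17) and 16 (0.16), and lowest on 13 (−0.10). Other gene-dense chromosomes did not share it: chromosome 11, with 9.66 protein-coding genes per Mb against 9.46 on 16 and 8.80 on 22, was at 0.03, and chromosome 1, with 8.27, was at −0.01. Wild-type SLFN11 cells had 0.23 on these chromosomes, against −0.17 elsewhere, and vector cells 0.05, against −0.06. Over 23 chromosomes the median log2 ratio followed the number of protein-coding genes per Mb with a Spearman rho of 0.669 in E669Q cells, and 0.627 without chromosome 19. For wild-type SLFN11 cells it was 0.648, and for vector cells 0.403. Chromosomes share their libraries, depth and base composition, so these are descriptions.

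**Figure D4:**
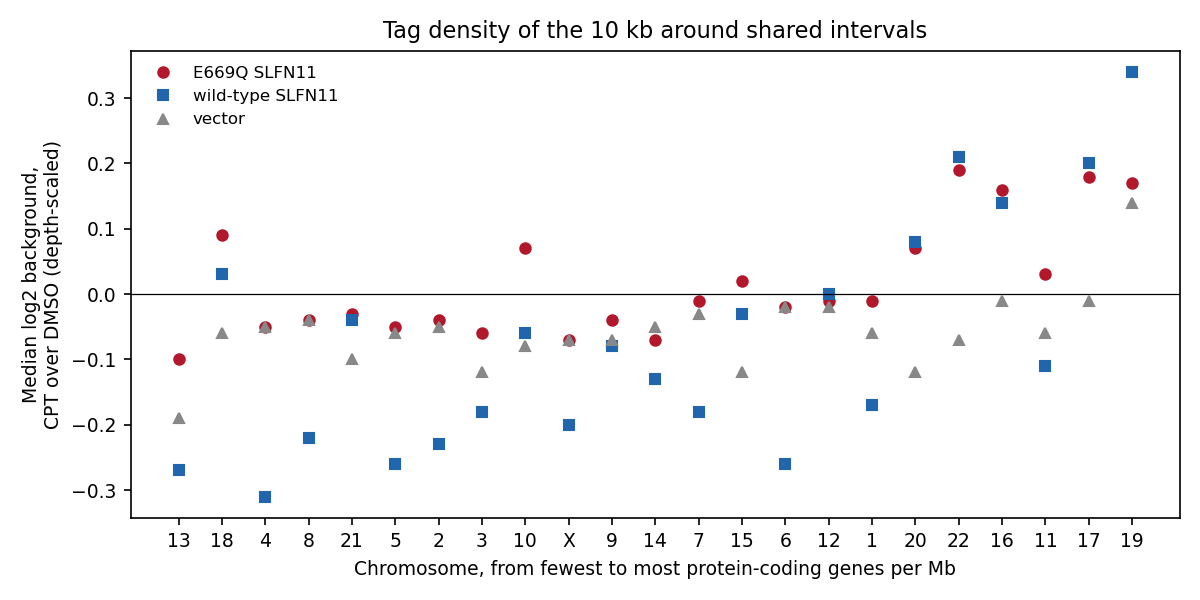
Median log2 ratio, CPT over DMSO, of the depth-scaled local background around shared intervals on each chromosome, ordered from the fewest to the most protein-coding genes per Mb, for the E669Q SLFN11 (circles), wild-type SLFN11 (squares) and vector (triangles) lines. E669Q values on chromosomes 16, 17, 19 and 22 lie between 0.16 and 0.19, and the lowest, on chromosome 13, is −0.10.

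Chromosome ends moved the other way in E669Q cells. In the first and last 10 Mb of the chromosomes, a window chosen after seeing the data, leaving out the starts of acrocentric chromosomes and counting the last 10 Mb back from the last listed interval, the median log2 background ratio was −0.08 (1380 pairs), against 0.02 over the rest (5437 pairs). Summit pileups were also lower, with a median log2 ratio of −0.31 at ends and −0.22 elsewhere. Fewer CPT intervals were gained at ends, 40.8% (38.8 to 42.8) against 46.2%, and more DMSO intervals lost, 23.2% (21.2 to 25.2) against 17.9%. Ends held 18.7% of the CPT list and 21.3% of the DMSO list. The higher loss at ends was not particular to E669Q cells. In the vector line 44.6% were lost at ends, against 38.5%, but more were also gained there, 51.1% against 44.1%. In the wild-type SLFN11 line 60.2% were lost at ends, against 59.4%, and 14.9% gained, against 15.1%.

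The lower background held for nearly every end when it was set against the rest of its own chromosome. Of 36 ends with at least 10 shared pairs, 34 were below, with a median difference of −0.14 on the log2 scale and a range of −0.39 to 0.19. The lowest were the ends of chromosomes X (−0.39), 2 (−0.36) and 8 (−0.34), and the 2 exceptions were the start of chromosome 18 (0.19) and the end of chromosome 20 (0.16). Among gene-dense chromosomes the start and end of chromosome 19 were at −0.16 and −0.01, those of 16 at −0.06 and −0.18, and those of 17 at −0.01 and −0.12. These are differences, and the ratios at these ends were themselves positive. They were 0.06 and 0.2 on chromosome 19, 0.13 and 0.01 on 16, and 0.23 and 0.12 on 17. For wild-type SLFN11 cells 24 of 34 ends were below the rest of their chromosome, with a median of −0.07, and for vector cells 11 of 23, with a median of 0.02. Over all ends together the ratio for wild-type SLFN11 cells was −0.11, against −0.12 over the rest, and for vector cells −0.05 in both. The difference between the lines was not tested, and with 1 library a group a difference between libraries cannot be told apart from treatment.

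**Figure D5:**
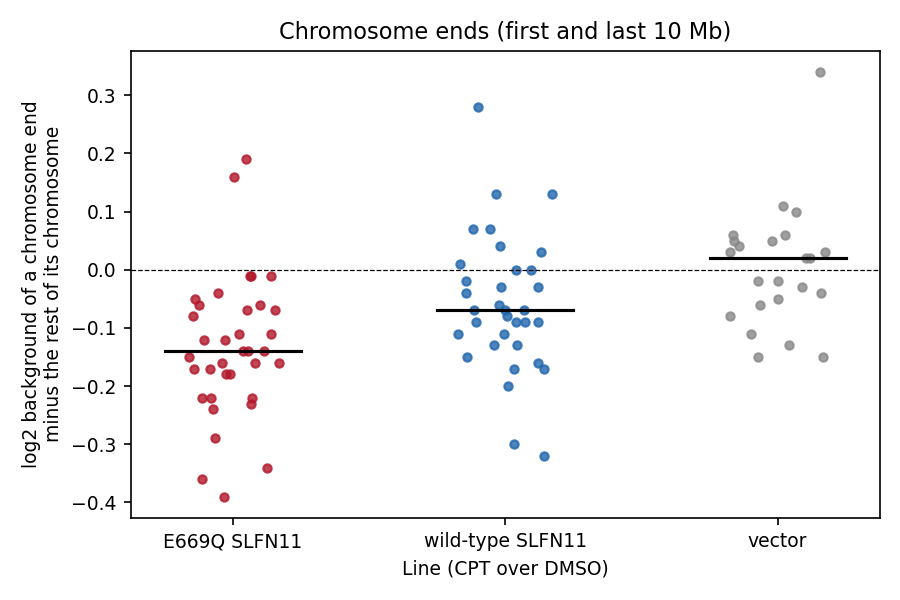
Each point is 1 chromosome end of 10 Mb: the median log2 ratio, CPT over DMSO, of local background around its shared intervals minus that of the rest of the same chromosome, in each line, with a bar at the median. In the E669Q SLFN11 line 34 of 36 ends lie below 0, in the wild-type SLFN11 line 24 of 34, and in the vector line 11 of 23.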

How the data were processed

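The deposited data were 1 peak list for each of 6 ATAC-seq libraries of 3 K562 lines, of which the 2 libraries of the E669Q SLFN11 line are compared here. The submitters' processing notes give hg19 as the build and list MACS2 2.1.2, Picard 2.9.2, SAMtools 1.8, Bowtie2 2.2.6 and Trimmomatic 0.39. Not given in the sources used here are their settings, the treatment of duplicates and any shift of reads for the transposase. Each deposited peak carries the authors' fold enrichment at its summit, a ratio to local background, and a score. It also carries the authors' p-value and q-value, both deposited as −log10. The deposited values are those of each list alone, and libraries were not pooled.

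Peaks with the same start and end were taken as 1 interval, with the values of its strongest summit. Coordinates are 1-based. Pileup and background at a summit were recovered by assuming the fold is (pileup + 1) / (background + 1) and the p-value a Poisson tail. A whole-number pileup solved both values, with a tolerance of 0.001 on −log10 p, for 99.3% of CPT and 99.1% of DMSO entries. Relative depth was the lowest background of a list divided by the step between its backgrounds, which is 1 fragment in 10 kb. To compare depths, CPT pileups and backgrounds were divided by the ratio of the lowest backgrounds (1.65) and rounded down, and unsolved entries were kept. Overlap, recovery and depth were first tested on simulated data.

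With 1 library a group no test was run. Shares carry exact Clopper-Pearson 95% intervals for counting error, which treat intervals as independent. PCR fragments without molecular identifiers are not independent molecules.

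The members, lists and named places were chosen with earlier results of these data known. Intervals were named by rule: the 10 gained and lost wider than 150 bp with the highest −log10 p, the 5 strongest at matched length and in no other list, up to 10 changed alike in all 3 lines, the 10 highest and lowest shared ratios with 20 fragments in either library, and the 5 leading segments of 10 Mb. Examples in the text come from these. The background limits, chromosome ends, 4 gene-dense chromosomes and scaled-pileup subsets were chosen after seeing the data. Genes, promoters and sequences were not used here, since the reference tables are of another build. Protein-coding genes per chromosome were counted in a RefSeq table without its coordinates and divided by the largest interval end. Alternatives were an overlap of 50% of both intervals, a gap of up to 250 bp, stricter thresholds, matched list lengths, no narrow intervals and equal depth. The work used scipy 1.17.1, numpy 2.4.6, matplotlib 3.10.9 and pandas 2.3.3 under Python 3.11.15.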

Additional observations from a re-analysis of the deposited data

Results flagged for a closer look

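The E669Q SLFN11 line and the wild-type SLFN11 line went in opposite directions on both of the following measures. With 1 library in each group the difference was not tested. The number of intervals with CPT was 1.47 times that with DMSO in the E669Q SLFN11 line and 0.477 times in the wild-type SLFN11 line. Depth went the same way: the CPT library was 1.66 times as deep as the DMSO library in the E669Q line and 0.634 times as deep in the wild-type line. The median log2 ratio of depth-scaled pileups at shared sites was −0.24 in the E669Q SLFN11 line and 0.10 in the wild-type SLFN11 line. In both lines the shallower library was the higher, and its part in this result was not tested. The local background around the same sites had median log2 ratios of 0.003 and −0.121 in these lines.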

How the results depend on the processing

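Counts of gained and lost sites followed the list length and the threshold. Gained intervals numbered 5572 as deposited, 2458 at a −log10 q of at least 5, 2796 at the DMSO list length by −log10 p, 2905 by fold, 1953 at the length of the shortest of the 6 lists and 2525 at DMSO depth. Lost intervals numbered 1590 as deposited, 373 at that −log10 q, 944 at a fold of at least 5, 3762 with a reciprocal overlap of 50%, 2718 at the DMSO list length by −log10 p, 2827 by fold and 2755 at DMSO depth. With strength classes by fold the strongest of 10 classes was 10.6% gained and 1.31% lost, against 6.40% and 0.478% by −log10 p. The shared-site median of −0.24 became 0 among pairs with at least 20 unscaled fragments. The share found in the DMSO list of the wild-type SLFN11 line was 25.3% of gained and 20.9% of lost intervals with 50% reciprocal overlap, and 15.3% and 13.9% with that list matched to the shortest. The excess on chromosomes 17 and 22 stayed above 0 in each setting run, at 9.44 to 10.7 and 3.56 to 6.20 points, against 10.4 and 10.3. The lower background at chromosome ends, −0.10 in 10 Mb, was −0.13 in 5 Mb and −0.08 in 20 Mb. No paired analysis was possible because each group has 1 library. Of the gained intervals 2525 passed the DMSO threshold at DMSO depth. Not passing does not mean that a site was undetectable. Of the 6765 shared CPT intervals, all of which overlapped a DMSO interval, 5527 passed.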
